A study of Mus musculus with 8 samples.

Results

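The 51 genes described here mark macrophages, monocytes, dendritic cells or leukocytes in general, and their RNA was measured in pancreatic islets of mice on high fat diet (HF) or normal chow (NC). The genes were chosen with earlier results of these data known. Every probe set annotated to exactly 1 of them was then taken, without regard to its values. That gave 90 probe sets of 50 genes, out of 45101 probe sets on the array, and Mafb2 has no probe set annotated to it here. Of these, 55 probe sets of 36 genes were bright enough to be tested, among 12299 genes tested in all. Both groups were male C57BL/6J mice from the Jackson Laboratories, and therefore share the natural deletion that leaves this strain without functional nicotinamide nucleotide transhydrogenase (NNT), a mitochondrial source of NADPH. HF mice were given 45 kcal% fat and NC mice 4 kcal% fat from 4 weeks of age, for 12 weeks according to the sample labels and 14 weeks according to the methods. Each diet is represented by 4 arrays, HF 21, 22, 23 and 24 and NC 1, 2, 4 and 5. Each array holds RNA of islets combined from 2 mice, freed with collagenase, enriched on a Ficoll gradient and picked by hand. So n counts pools, and the p-values measure the spread between these pools.

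Islets contain a resident population of macrophages that lie close to the capillaries, depend on signalling through the CSF1 receptor, and take up material shed by endocrine cells. Monocytes arrive from the blood and can become macrophages or dendritic cells, and dendritic cells carry antigen to T cells. Many genes used to recognise these cells are shared among them and with lymphocytes, since they serve the cytoskeleton, surface and signalling of leukocytes in general.

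The values used were the deposited GCRMA intensities, which are linear, adjusted for background and normalized across arrays, and they were taken to log2. Each gene stands by the brightest of its retained probe sets, and it was called lower or higher in HF at an adjusted p under 0.05 in limma with a fold change of at least 1.5. Counts by the t-test of the methods used the same fold limit. The lowest level that the filter on dim probe sets kept was an intensity of 8.82. Over all probe sets, the 8 samples had median intensities of 13.0 to 13.8. A sample's mean correlation over the retained probe sets with the samples on its own diet was 0.992 to 0.994, against 0.987 to 0.989 with those on the other diet. The label of islet tissue was matched by 10 retained beta cell markers, whose summed intensity was 309436 to 327561 in HF and 291190 to 298455 in NC. Acinar markers were bright as well, with a summed intensity of 6 genes of 259357 to 297547 in HF and 243292 to 306413 in NC.

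In HF islets 17 of the 36 macrophage and myeloid genes tested were lower than in NC islets and 0 were higher. All leukocyte genes tested fell, among them Ptprc (CD45), Cd53 and Coro1a, and so did the monocyte genes Cd14, Lyz1 and Lyz2, the activation marker Cd83 and the mannose receptor Mrc1. The receptor for bacterial lipoproteins Tlr2, the Fc receptor chain Fcer1g and the microglial and macrophage receptor Trem2 were among the genes that did not pass the test. The lower genes are 47.2% of the 36 tested and 33.3% of the 51 listed, while 4.28% of all genes tested were lower and 0.447% were higher. Because the genes were chosen with earlier results known, these shares describe the list and do not test it. The count of higher genes was also 0 at an unadjusted p under 0.05 in limma and by the methods' t-test. The log2 fold changes, HF minus NC, ran from -2.17 for Cd83 to 0.03 for Trem2, with a median of -0.68 against 0.00 over all genes. In 25 of the 36 genes all 4 HF samples lay below all 4 NC samples, a pattern found in 10.3% of all genes, and 12 were called with a log2 fold change of -1 or below, against 2.37% of all genes. Of the 55 probe sets, 23 were lower and 0 higher, where 3.06% of all retained probe sets were lower. In RNA of whole islets, fewer cells of a type and less RNA per cell cannot be told apart.

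**Figure D1:**
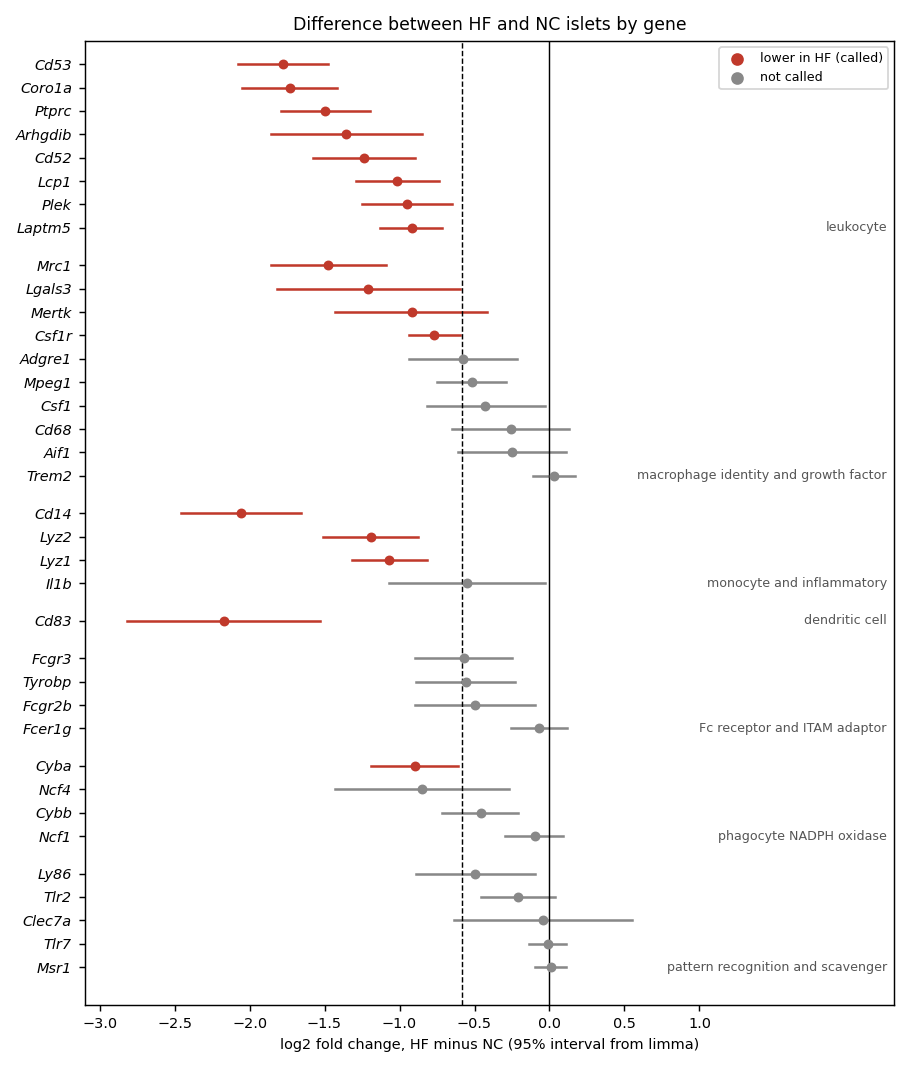
Log2 fold change, HF minus NC, of the 36 genes tested, grouped by role and sorted within each role, with the 95% interval from limma; the dashed line marks the fold limit of 1.5. The called genes run from Cd83 at -2.17 to Csf1r at -0.77, and Trem2, Fcer1g, Clec7a, Tlr7 and Msr1 are the genes nearest to 0.

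The member genes were lower in each HF sample. Relative to the NC mean, the median log2 level over the 36 genes was -0.71, -0.62, -0.79 and -0.86 in HF 21, 22, 23 and 24, and 0.08, 0.10, -0.16 and -0.07 in NC 1, 2, 4 and 5. Summed over the 36 genes, intensity was 6233, 6272, 5849 and 5943 in HF samples against 11817, 12204, 9921 and 11127 in NC samples, so the groups did not overlap.

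**Figure D2:**
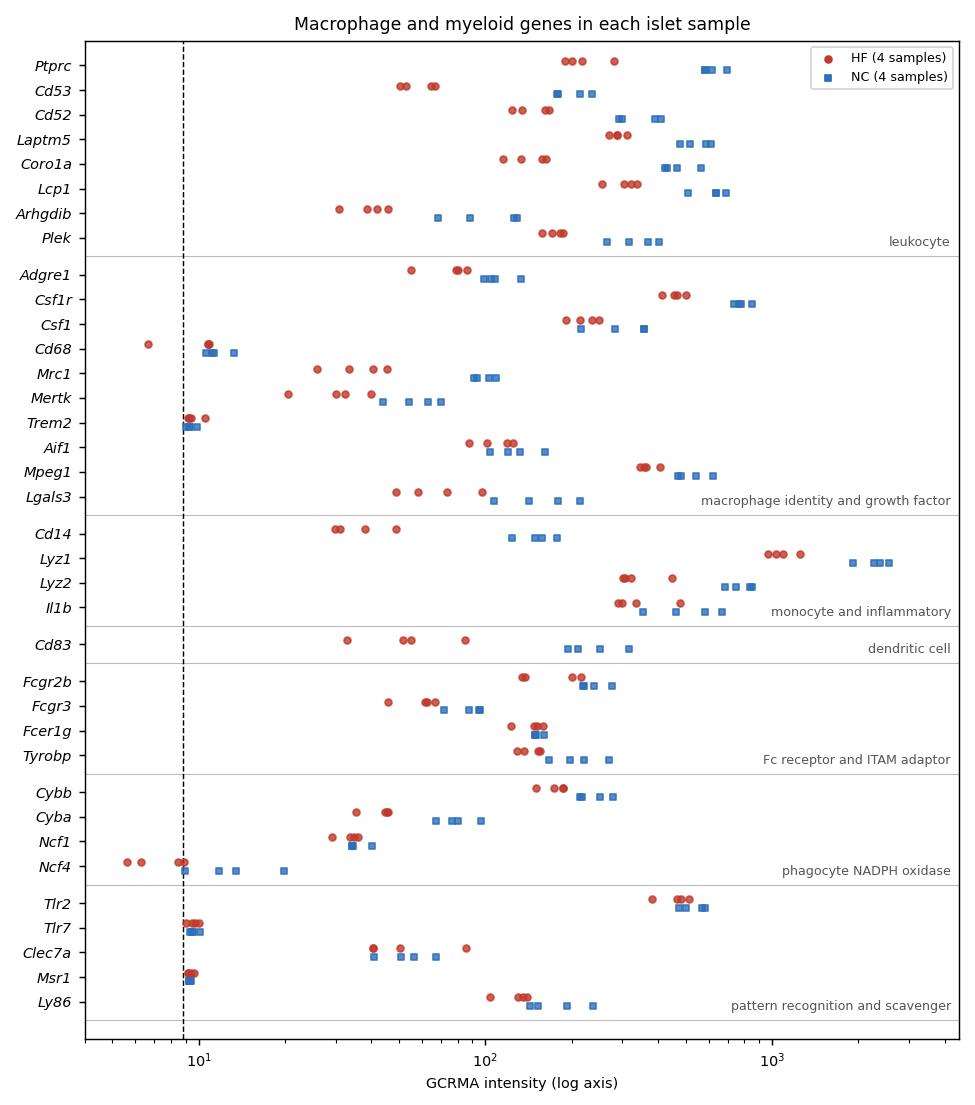
GCRMA intensity (log axis) of each of the 36 genes in each sample, HF as circles and NC as squares, with the filter level of 8.82 as a dashed line. All 8 leukocyte genes have separate groups, while Il1b, Fcer1g, Clec7a and Tlr2 are among those that overlap, and Trem2, Tlr7 and Msr1 lie just above the filter level.

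The promoters of several of these genes carry the letters AGGAAGT, the core recognised by ETS family transcription factors such as PU.1, the product of Spi1, which drives much of the myeloid gene programme. The RefSeq promoter table (GRCm38.p6, 250 bases before to 50 after each start) held 44 promoters of 36 member genes. These were 13 of the 17 genes called lower, 14 of the 19 tested and not called, and 9 of the 14 under the filter. Both strands were searched. AGGAAGT stood in 27.3% of the member promoters and in 9.35% of all 32851 promoters. It was found in 7 of 18 promoters of genes called lower, in 0 of 16 of genes tested and not called, and in 5 of 10 of genes under the filter. Some genes have several promoters, and by gene these were 6 of 13, 0 of 14 and 5 of 9. The lower genes with the motif include the related lysozymes Lyz1 and Lyz2. The difference between the sets was not tested, and the genes and motifs were chosen with earlier results of these data known. The related letters GAGGAA, which share AGGAA with the first motif and may overlap it, stood in 6 of 18, 8 of 16 and 5 of 10 promoters of the same sets, 43.2% of member promoters and 28.3% of all. A match describes the letters alone, and their absence says nothing of binding. The stretches around the motif are shown for the 5 lower genes that carry it upstream of the start. These genes include the lysozymes, the mannose receptor and CD45, whose intensities follow. Each stretch is written 5′ to 3′ along the gene's strand, with the motif in capitals (ACTTCCT is AGGAAGT read on the other strand).
Lyz1 (chr10:117292922-117293008, minus strand): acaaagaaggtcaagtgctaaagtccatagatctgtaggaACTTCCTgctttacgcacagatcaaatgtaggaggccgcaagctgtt
Lyz2 (chr10:117282326-117282412, minus strand): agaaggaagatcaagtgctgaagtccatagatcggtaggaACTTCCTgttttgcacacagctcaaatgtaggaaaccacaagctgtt
Mrc1 (chr2:14229164-14229249, plus strand): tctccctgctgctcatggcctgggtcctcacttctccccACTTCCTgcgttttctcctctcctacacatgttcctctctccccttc
Ptprc (chr1:138175372-138175458, minus strand): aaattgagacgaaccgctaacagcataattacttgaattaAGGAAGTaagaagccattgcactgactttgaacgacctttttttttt
Arhgdib (chr6:136941690-136941753, minus strand): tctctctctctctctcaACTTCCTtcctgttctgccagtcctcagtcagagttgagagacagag
The motif begins 100 bases before the start in both lysozyme genes, and their promoters have the same base at 201 of 300 positions (67%). It begins 211 bases before the start in Mrc1, 113 in Ptprc and 233 in Arhgdib.

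Leukocyte genes were lower without exception among those tested, 8 of 8, with a median log2 fold change of -1.30. Ptprc encodes CD45, the tyrosine phosphatase on the surface of all nucleated blood cells. Its intensity was 189, 201, 281 and 218 in HF samples against 585, 697, 583 and 619 in NC samples. The highest HF value was under the lowest NC value by a wide margin, and the log2 fold change was -1.50 (SE 0.13, adjusted p = 0.00106). Cd53, a tetraspanin of leukocyte membranes, had 64.8, 52.9, 50.2 and 66.8 in HF samples against 236, 213, 177 and 179.7 in NC samples. Both groups were tight, and the log2 fold change of -1.78 (SE 0.13, adjusted p = 9.82e-04) was the largest of the leukocyte genes. Coro1a, an actin-binding protein of leukocyte motility, reached 133, 115, 163 and 157 in HF samples and 466, 567, 429 and 423 in NC samples. All HF values were low, and the log2 fold change was -1.73 (SE 0.14, adjusted p = 9.82e-04), with a second retained probe set at -1.42 that was also called.

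The remaining leukocyte genes fell by less, and among them the NC samples of Arhgdib were spread most widely. Arhgdib, a cytoplasmic protein abundant in leukocytes, had intensities of 30.9, 38.5, 45.6 and 41.9 in HF samples against 126, 129, 68.6 and 88.1 in NC samples (log2 fold change -1.36, SE 0.22, adjusted p = 0.0115). Cd52, a small glycoprotein anchored on lymphocytes and monocytes, had 124 to 167 in HF and 292 to 410 in NC (log2 fold change -1.24, SE 0.15, adjusted p = 0.00356). Lcp1 (L-plastin), a protein that bundles actin, had 305, 256, 339 and 322 in HF samples and 691, 636, 637 and 507 in NC samples (log2 fold change -1.02, SE 0.12, adjusted p = 0.00347). Groups were apart in each of these genes. Plek (pleckstrin), a substrate of protein kinase C, had 171, 186, 182 and 157 in HF samples and 402, 369.6, 265 and 318 in NC samples (log2 fold change -0.95, SE 0.13, adjusted p = 0.00587). Laptm5, a lysosomal membrane protein of blood cells, had 287, 311, 287 and 269 in HF samples and 587, 518, 479 and 613 in NC samples (log2 fold change -0.92, SE 0.09, adjusted p = 0.00166). NC 4 was the lowest NC sample for Arhgdib, Plek and Laptm5, and still above every HF sample. The other leukocyte members, Cd37 (a tetraspanin chiefly of B cells) and Rac2 (a small GTPase of blood cells), had no retained probe set. Rac2 read 4.70 to 5.81 in HF samples and 13.9, 14.5, 6.09 and 5.77 in NC samples on its brighter probe set, so that only NC 1 and NC 2 stood above the filter level.

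Of the genes of macrophage identity, 4 of 10 tested were lower, with a median log2 fold change of -0.55. Csf1r, the receptor for the growth factors CSF1 and IL-34, had intensities of 464, 502, 456 and 414 in HF samples against 767, 849.9, 779.7 and 739 in NC samples. Values of each diet lay close together, and the log2 fold change of -0.77 had the smallest standard error among the called genes (SE 0.07, adjusted p = 0.00162). Its ligand Csf1 had 235, 249, 191 and 214 in HF samples against 357, 357, 215 and 284 in NC samples. Those groups overlapped through NC 4, and the difference did not pass (log2 fold change -0.43, 95% interval -0.82 to -0.03, adjusted p = 0.206). Mrc1, the mannose receptor CD206 of tissue macrophages, had 25.8, 45.4, 40.7 and 33.4 in HF samples and 93.3, 103, 109 and 91.0 in NC samples. The highest HF sample was well under the lowest NC sample, and the log2 fold change was -1.48 (SE 0.17, adjusted p = 0.00300).

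Lgals3 (galectin-3), a lectin of activated macrophages and also of epithelial cells, had intensities of 97.3, 73.3, 58.2 and 48.9 in HF samples against 142, 213, 107 and 179 in NC samples (log2 fold change -1.21, SE 0.26, adjusted p = 0.0357). Mertk, the receptor tyrosine kinase by which macrophages engulf dying cells, had 32.5, 39.9, 30.2 and 20.5 in HF samples and 69.9, 43.8, 54.2 and 63.0 in NC samples (log2 fold change -0.92, SE 0.22, adjusted p = 0.0481). In both genes the samples of a diet varied more than for Csf1r, and the calls were the least stable of the 17. Without 1 sample the adjusted p of Lgals3 ran from 0.0259 to 0.0945, and its call was lost without HF 22, HF 23, HF 24, NC 1, NC 2 or NC 5. That of Mertk ran from 0.0388 to 0.117, and its call was kept only without HF 22.

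Other genes of macrophage identity changed less. Mpeg1 (perforin-2), a pore-forming protein of phagocytes, had 362, 345, 356 and 408 in HF samples and 624, 544, 471 and 482 in NC samples. The groups were apart and the adjusted p was 0.0234, but the log2 fold change of -0.52 was under the fold limit. Adgre1, which encodes the macrophage antigen F4/80, had 86.1, 79.2, 54.9 and 80.5 in HF samples and 133, 108, 99.1 and 105 in NC samples. Here too every HF sample lay below every NC sample, while the test was missed (log2 fold change -0.58, SE 0.16, adjusted p = 0.0712). Aif1 (IBA1), a calcium-binding protein of macrophages, had 101, 87.7, 119 and 125 in HF samples against 161, 132, 104 and 119.6 in NC samples, with overlapping groups (log2 fold change -0.25, 95% interval -0.61 to 0.11, adjusted p = 0.430). Cd68, a lysosomal glycoprotein of macrophages, read 10.8, 10.9, 10.8 and 6.65 in HF samples and 11.3, 13.3, 11.1 and 10.6 in NC samples. These values were close to the filter level, 1 of them under it, and the log2 fold change was -0.26 (95% interval -0.65 to 0.13, adjusted p = 0.438). Trem2, a lipid receptor of macrophages and microglia, read 9.16 to 10.5 in HF and 9.06 to 9.85 in NC, so that its difference of 0.03 was measured at the edge of detection.

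Monocyte and inflammatory genes included some of the largest falls, 3 of 4 tested, with a median log2 fold change of -1.13. Cd14, the co-receptor that hands bacterial lipopolysaccharide to TLR4, had intensities of 48.8, 31.0, 29.8 and 38.0 in HF samples against 158, 177, 124 and 149 in NC samples. The HF mean was 24.3% of the NC mean, and the log2 fold change was -2.06 (SE 0.17, adjusted p = 0.00106). Lyz2, the lysozyme of macrophages and neutrophils, had 446, 302, 308 and 322 in HF samples and 751, 837, 685 and 848 in NC samples. HF 21 stood above the other HF samples and below all NC samples, and the log2 fold change was -1.19 (SE 0.14, adjusted p = 0.00300). Lyz1, the adjacent lysozyme gene known for its expression in Paneth cells, had 1246, 1093, 969 and 1035 in HF samples and 2270, 2384, 1911 and 2564 in NC samples. The groups were again separate (log2 fold change -1.07, SE 0.11, adjusted p = 0.00208), and a second probe set was also called (adjusted p = 0.00376). Both Lyz1 probe sets are of the kind whose probes may match related transcripts, so they are uncertain as a measure of Lyz1 apart from Lyz2. Il1b, which encodes the cytokine interleukin-1 beta, had 300.3, 477, 289.6 and 334 in HF samples and 669.6, 581, 354 and 461 in NC samples. HF 22 lay above NC 4 and NC 5, and the difference was not called (log2 fold change -0.55, 95% interval -1.07 to -0.03, adjusted p = 0.218). Tnf, the other cytokine of the list, was under the filter level in every sample.

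Cd83 was the only one of 5 dendritic cell genes that could be tested. It encodes a surface protein of mature dendritic cells that is also made by activated B cells. Its intensity was 33.0, 85.0, 51.7 and 54.9 in HF samples and 318, 251, 194 and 211 in NC samples. HF 22 was the highest HF sample and remained far below the lowest NC sample. The log2 fold change of -2.17 (SE 0.28, adjusted p = 0.00469) was the largest of the 36 genes. The growth factor receptor Flt3, the lectins Cd209a and Clec10a and the costimulatory ligand Cd86 were under 8.82 in all 8 samples.

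Fc receptors and their adaptors did not pass by their brightest probe sets, 0 of 4 in limma and 0 of 4 by the methods' t-test with the fold limit. In limma 3 of 4 had an unadjusted p under 0.05, and the median log2 fold change was -0.53. Without the fold limit, the methods' t-test gave an unadjusted p of 0.0104 for Fcgr3, 0.0437 for Fcgr2b and 0.423 for Fcer1g. Fcer1g, the signalling chain shared by activating Fc receptors, had 159, 148, 123 and 151 in HF samples against 160.1, 149.6, 149 and 149 in NC samples. Apart from HF 23 the samples lay between 148 and 160.1, and the log2 fold change was -0.07 (95% interval -0.26 to 0.12, adjusted p = 0.699). Tyrobp (DAP12), the adaptor of TREM2 and related receptors, had 152, 136, 129 and 155 in HF samples and 221, 270.3, 166 and 197 in NC samples. Fcgr3, a low-affinity activating receptor for IgG, had 62.5, 61.4, 66.6 and 45.7 in HF samples and 71.5, 87.7, 95.1 and 95.9 in NC samples. In both, every HF sample lay below every NC sample, yet the adjusted p was 0.0644 for Tyrobp (log2 fold change -0.56, SE 0.14) and 0.0542 for Fcgr3 (-0.57, SE 0.14). Both log2 fold changes were also under the fold limit. Tyrobp was called without NC 4 (adjusted p = 0.0279) and Fcgr3 without NC 1 (adjusted p = 0.0455). Fcgr1 and Fcgr4, the receptors with higher affinity for IgG, were under the filter level in every sample.

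Fcgr2b, the inhibitory Fc receptor of B cells and myeloid cells, depended on the probe set. Its brightest probe set had 134, 200.1, 216 and 137 in HF samples and 220.0, 239, 219 and 276 in NC samples. HF 22 and HF 23 came close to the NC samples there, and the log2 fold change of -0.50 was not called (SE 0.17, adjusted p = 0.148). The other 3 retained probe sets were called, at -1.54 (adjusted p = 0.00108), -1.45 (adjusted p = 0.00104) and -1.10 (adjusted p = 0.00522). On the dimmest of them Fcgr2b had 37.4, 29.6, 29.1 and 29.9 in HF samples and 70.6, 94.8, 85.6 and 94.0 in NC samples. With the mean of all its probe sets Fcgr2b was lower, with a log2 fold change of -1.15 (adjusted p = 4.02e-04).

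Probe sets also differed for other members. Of the 12 genes with several retained probe sets, 2 had all of them called (Coro1a and Lyz1), 5 had some called (Csf1r, Fcgr2b, Laptm5, Lcp1 and Plek) and 5 had none called. For Csf1r the 2 dimmer probe sets gave -0.49 (adjusted p = 0.0718) and -0.65 (adjusted p = 0.0959). A second Lcp1 probe set read 81.4, 82.6, 81.5 and 85.1 in HF samples and 160.3, 121, 93.0 and 106 in NC samples, which was apart but not called (log2 fold change -0.51, adjusted p = 0.0965). For Plek the dimmer probe set had a log2 fold change of -1.33, but its NC samples ran from 48.2 to 166 and it missed the test (adjusted p = 0.0650). One of the dimmer Laptm5 probe sets was called (-0.73, adjusted p = 0.0399) and the other, at 16.2 to 16.6 in HF and 16.5 to 21.7 in NC, was not (-0.22, adjusted p = 0.269). In these 5 genes every retained probe set had a negative difference. The brightest Laptm5 probe set and the Fcgr2b probe set at -1.10 are of the same kind as those of Lyz1, whose probes may match related transcripts.

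**Figure D3:**
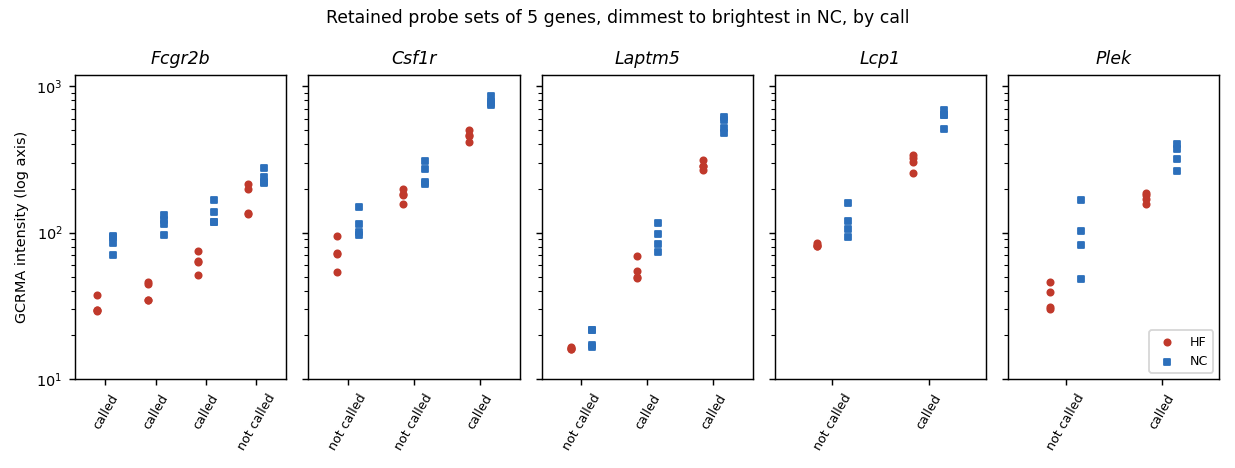
GCRMA intensity (log axis) of the retained probe sets of the 5 genes with mixed calls, ordered from dimmest to brightest in NC, HF as circles and NC as squares. The probe set that was not called is the brightest for Fcgr2b and a dimmer one for Csf1r, Laptm5, Lcp1 and Plek.

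Of the phagocyte NADPH oxidase, which produces superoxide during the respiratory burst, 1 of 4 subunits was lower, and the median log2 fold change was -0.66. Cyba (p22phox), a membrane subunit that other NADPH oxidases also use, had intensities of 35.5, 45.4, 44.7 and 45.6 in HF samples against 80.1, 96.2, 67.5 and 76.2 in NC samples (log2 fold change -0.90, SE 0.13, adjusted p = 0.00627). Cybb (gp91phox), the catalytic subunit of phagocytes, had 173, 186, 149.7 and 186 in HF samples and 251, 278, 218 and 213 in NC samples. Both membrane subunits were separated by diet, but Cybb, with an adjusted p of 0.0461, had a log2 fold change of -0.46 that did not reach the fold limit. The cytosolic subunit Ncf1 (p47phox) had 33.6, 29.2, 35.8 and 34.7 in HF samples and 40.3, 34.4, 34.3 and 34.2 in NC samples (log2 fold change -0.10, 95% interval -0.30 to 0.09, adjusted p = 0.563). Ncf4 (p40phox) read 8.45, 5.62, 8.90 and 6.30 in HF samples and 13.5, 11.8, 19.9 and 8.93 in NC samples. It passed the filter through its NC samples, with 3 of 4 HF samples under 8.82, and was not called (adjusted p = 0.0961).

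Receptors of pattern recognition and scavenging had the median log2 fold change nearest to 0 of all roles, -0.04. Of those tested, 0 of 5 were called by limma or by the methods' t-test with the fold limit. Only Ly86 had an unadjusted p under 0.05 in limma. Without the fold limit, the methods' t-test gave Ly86 an unadjusted p of 0.0438. Tlr2 had intensities of 467, 512, 381 and 481 in HF samples against 473, 568, 584 and 499 in NC samples. It was among the brighter members on both diets, the groups overlapped, and the log2 fold change was -0.21 (95% interval -0.46 to 0.04, adjusted p = 0.336). Clec7a (dectin-1), the receptor for fungal beta-glucans, had 40.4, 85.4, 50.5 and 40.5 in HF samples and 56.4, 67.4, 40.9 and 50.9 in NC samples, with HF 22 the highest of the 8. Its interval, from -0.64 to 0.55, was wide around a difference of -0.04 (adjusted p = 0.958). Ly86 (MD-1), a partner of the receptor RP105, had 139.5, 129.7, 135 and 104 in HF samples and 193, 238, 143 and 152 in NC samples. These groups were apart but the difference was not called (log2 fold change -0.50, SE 0.17, adjusted p = 0.148). The endosomal RNA receptor Tlr7 (at most 9.99 in HF and 10.1 in NC) and the scavenger receptor Msr1 (at most 9.63 in HF and 9.40 in NC) lay near the filter level in all samples. Their differences of -0.01 and 0.01 enter the median of these 5 genes, which is therefore not directly comparable with the medians of other roles. The lipopolysaccharide receptor Tlr4 and the scavenger receptor Marco had no retained probe set.

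In all, 14 genes with 22 probe sets were under the filter: Cd37, Rac2, Cd163, Folr2, Tnf, Flt3, Cd209a, Clec10a, Cd86, Fcgr1, Fcgr4, Tlr4, Marco and Spi1. For 10 of them no sample reached 8.82. The haemoglobin scavenger receptor Cd163 read 6.52 to 6.89 in HF samples and 6.89, 6.77, 12.1 and 10.2 in NC samples, so NC 4 and NC 5 were above that level. Marco reached it in NC 1 alone, at 10.4. Spi1, the gene of PU.1, read 9.71, 8.48, 8.36 and 8.53 in HF samples and 10.9, 8.41, 8.43 and 8.35 in NC samples, above the filter level in HF 21 and NC 1. These 14 genes were left out of the fit above. In a fit with no filter 0 of them were called by limma, and 0 had an unadjusted p under 0.05, with Rac2 at a log2 fold change of -0.75 (SE 0.34, adjusted p = 0.432).

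Set out by cell class, the members stand for resident macrophages, monocytes or dendritic cells, or are shared. Of 11 resident macrophage genes 7 were tested and 3 were lower (Csf1r, Mrc1 and Mertk), with a median log2 fold change of -0.58. Of 8 monocyte genes 5 were tested and 3 were lower (Cd14, Lyz1 and Lyz2), with a median of -1.07, and Cd83 alone stands for the dendritic cell class. The other 23 genes tested are shared among classes, and 10 of them were lower (median -0.57). Relative to the NC mean, the median of the resident macrophage genes was -0.36, -0.48, -0.78 and -0.79 in HF 21, 22, 23 and 24, and that of the monocyte genes was -0.80, -1.05, -1.23 and -1.13. In the NC samples the medians ranged from -0.07 to 0.01 for resident macrophage genes and from -0.25 to 0.11 for monocyte genes. Each class was lower in each HF sample, and the difference between the classes was not tested. Trem2, Msr1 and Cd68 of the resident macrophage class lay near the filter level of 8.82, while no tested monocyte gene did. The medians of these classes are therefore not directly comparable. Assignment to a class is by convention, and Lyz2 and Cd14 are also expressed by macrophages. The monocyte median is the value of Lyz1, whose probe sets may also match Lyz2, so the lysozyme genes may not be separate measures.

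**Figure D4:**
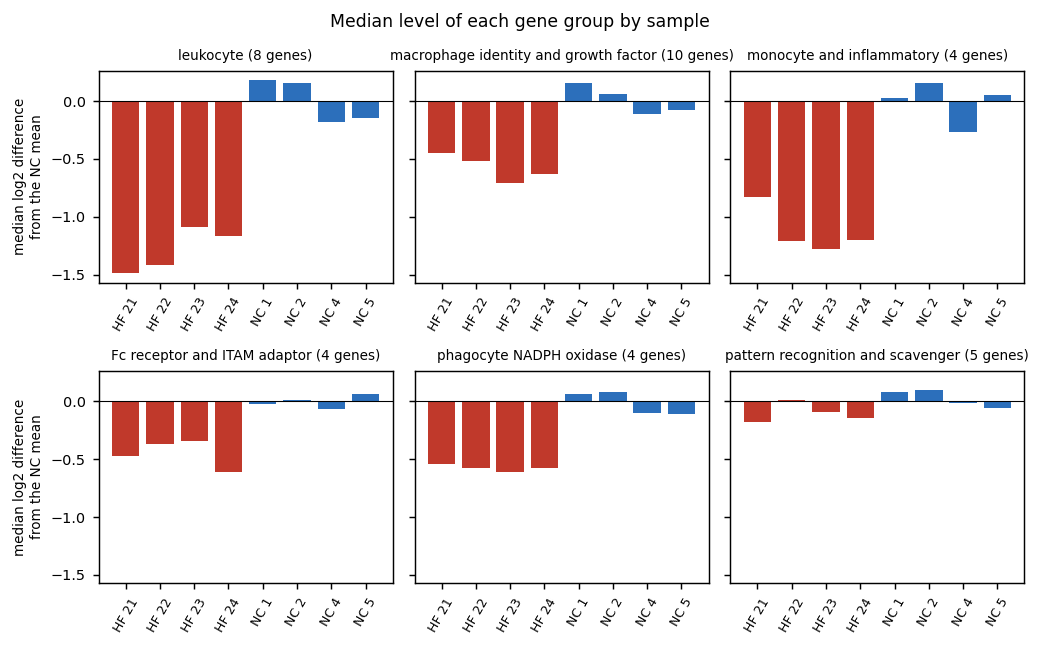
Median log2 difference from the NC mean over the genes of each role in each sample, HF bars left of NC bars, for the 6 roles with at least 4 genes tested. Leukocyte genes lie between -1.49 and -1.09 in HF, and the 5 pattern recognition and scavenger genes range from -0.18 to 0.01 in HF and from -0.06 to 0.10 in NC. Among the latter, Tlr7 and Msr1 lie near the filter level.

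Further genes of the same cells and pathways, taken as whole lists, fell in part and none was higher. In a list of 20 other resident macrophage genes 13 were tested and 4 were lower (median log2 fold change -0.61), among them the transcription factor Maf (-1.51, adjusted p = 0.00198), the apolipoprotein Apoe (-0.71, adjusted p = 0.00267) and the MERTK ligand Gas6 (-0.90, adjusted p = 0.00358). Maf had 79.4, 71.4, 66.6 and 60.7 in HF samples against 228, 157, 176 and 242 in NC samples. The other 9 were not called. Of these, C1qb (-0.51, adjusted p = 0.0294) and Ctss (-0.47, adjusted p = 0.0481) missed only the fold limit. The largest p in limma belonged to C1qa (-0.24, adjusted p = 0.451), Cx3cr1 (0.01, adjusted p = 0.958) and Slc40a1 (-0.02, adjusted p = 0.978). The receptors Siglec1, Vsig4 and Timd4, which mark resident macrophages in other tissues, were under the filter. Of 9 monocyte and granulocyte genes tested 3 were lower, namely the integrin chain Itgb2 (-0.83, adjusted p = 0.00267), the interferon-induced membrane protein Ifitm3 (-1.07, adjusted p = 0.00493) and Plac8 (-2.15, adjusted p = 0.0332). Plac8 passed the filter through its NC samples, with 5.33, 5.41, 9.04 and 5.46 in HF samples and 35.7, 54.8, 10.8 and 26.3 in NC samples, so its fold change is set against values mostly under the filter level. Of 13 dendritic cell genes tested 2 were lower, and the median of that list was -0.30. They were the actin-bundling protein Fscn1 (-0.97, adjusted p = 0.00529) and the transcription factor Irf8 (-1.04, adjusted p = 0.0268). Irf8 also serves B cells and macrophages, and Apoe and Gas6 are made by stromal and vascular cells too.

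Among the signalling partners of the receptors the calls differed by list, where 4.28% of all genes tested were lower. Among 9 genes of the CSF1 receptor axis 2 were lower, the ETS factor Fli1 (-1.24, adjusted p = 0.00358), which endothelial cells share, and the cytokine receptor chain Csf2rb (-1.22, adjusted p = 0.0450). Csf2rb had 7.60, 7.93, 9.73 and 7.22 in HF samples and 20.1, 13.1, 33.4 and 13.9 in NC samples, so most of its HF values were under the filter level. Of 12 genes of Toll-like receptor signalling 3 were lower, and the median of the list was -0.10. They were the lipopolysaccharide-binding protein Lbp (-0.60, adjusted p = 0.00384), the NF-kappa-B inhibitor Nfkbia (-0.59, adjusted p = 0.00446) and the fatty acid receptor Cd36 (-0.80, adjusted p = 0.0192). Lbp read 8.74 to 9.64 in HF samples, close to the filter level, and 12.9 to 15.4 in NC samples. Of 10 genes of ITAM and Src family signalling 0 were called by limma (2 at an unadjusted p under 0.05, the kinase Syk and the adaptor Fyb) and 1 by the methods' t-test unadjusted. Syk read 5.75, 11.2, 11.0 and 11.4 in HF samples and 24.1, 15.2, 13.4 and 15.6 in NC samples, which were apart but variable (log2 fold change -0.81, adjusted p = 0.127). Of 5 further NADPH oxidase genes 0 were called by limma or by the methods' t-test, with Nox4 alone at an unadjusted p under 0.05 (log2 fold change -0.38, adjusted p = 0.119).

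Markers of other cells were lower in the same samples, and their part in the results above was not tested. Of 9 B and plasma cell markers tested 6 were lower, and the summed intensity of the 9 was 499.8, 296, 1085 and 730.1 in HF samples against 2549, 3254, 2811 and 2608 in NC samples. Among the 6, Iglv1 read 6.56, 5.18, 9.64 and 7.20 in HF samples, mostly under the filter level of 8.82. Ms4a1, which encodes CD20, had 14.9, 15.9, 38.3 and 36.2 in HF samples and 109, 98.0, 65.3 and 85.1 in NC samples (log2 fold change -1.87, adjusted p = 0.0200). Among the HF samples the B and plasma cell sum was lowest in HF 22 and highest in HF 23, and the sum of the 8 leukocyte genes had the same order. The leukocyte sum was 1314, 1283, 1516 and 1393 in HF samples against 3482, 3539, 2938 and 3041 in NC samples. The sum over all 36 members had another order in HF, lowest in HF 23 (5849) and highest in HF 22 (6272). Among the NC samples the orders differed, with the B and plasma cell sum lowest in NC 1 and the leukocyte sum lowest in NC 4. B cells also express Ptprc, Cd53, Cd52, Coro1a, Cd83 and Fcgr2b. All 10 fibroblast and stellate cell markers were lower, with a summed intensity of 3063 to 5261 in HF and 13808 to 19668 in NC, as were 3 of 10 endothelial markers (13027 to 14625 in HF, 17133 to 19927 in NC). In 7 of the 10 endothelial markers all 4 HF samples lay below all 4 NC samples, a pattern found in 10.3% of all genes.

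Few markers of other blood cells were retained. Of the T and NK cell markers only Zap70 was retained, with 115 to 138 in HF and 135 to 139 in NC, and Cd3e, Cd4 and Cd8a were not. Only Hdc was retained among the mast cell markers, at 15.2 to 16.7 in HF and 16.4 to 17.1 in NC. The neutrophil genes S100a8 and S100a9 together read 12.3 to 13.6 in HF samples and 15.2, 43.7, 94.7 and 53.0 in NC samples. Taken singly, each was under 8.82 in every HF sample and in NC 1, so both passed the filter through NC 2, NC 4 and NC 5. NC 1 was the lowest NC sample, and neither gene was called (adjusted p = 0.0741 for S100a8 and 0.100 for S100a9). Of 6 acinar, 6 duct and 10 beta cell markers tested 0 were called by limma, with medians of -0.03, -0.06 and 0.11. In 5 of the 10 beta cell markers all 4 HF samples lay above all 4 NC samples, a pattern found in 707 of 12299 genes tested. Among them Pcsk1 (log2 fold change 0.34, adjusted p = 0.0312) missed only the fold limit. At an unadjusted p under 0.05 in limma stood 0 acinar, 1 duct (Krt19, log2 fold change -1.77, adjusted p = 0.0534) and 3 beta cell markers. The methods' t-test with the fold limit called Krt19 alone, without adjustment. Krt19 passed the filter through its NC samples, at 13.4, 40.4, 32.8 and 10.7. Its HF samples read 8.53, 5.93, 5.34 and 5.15, so its fold change is set against values under the filter level.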

How the data were processed

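Islet RNA of 8 pools, 4 per diet, was hybridised to Affymetrix MOE 430v2 arrays. The authors computed expression values with GCRMA in ArrayAssist Lite 3.4, and the deposited values are intensities on the linear scale, 1 per probe set and sample, already background-adjusted and normalized. They were taken to log2 with no pseudocount or other scaling. Present flags, by which the methods filtered, were not used here. Instead, probe sets were ranked by their third-highest value over the 8 samples, without regard to diet, and the top 25617 were kept, the lowest at 8.82. Differences between HF and NC were fitted with limma 3.58.1 (lmFit, eBayes) under R 4.3.3. P-values were adjusted by Benjamini-Hochberg over all retained probe sets, and calls needed both an adjusted p under 0.05 and 1.5-fold or more. The fit was tested on simulated data. SAM, the test of the methods, was not run here. The number of arrays limits the precision, and 0 columns were left without a sample.

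The member genes, the lists and the motifs were chosen with earlier results of these data known. Per-sample values are given in each role for up to 4 genes with the smallest and 2 with the largest p and for genes with mixed probe sets, and for the other called genes, which were added after their values were seen. Up to 3 genes of each further list are named by smallest p, and more resident macrophage genes were added after their values were seen. Gene names are those of the platform annotation, updated through RefSeq, and promoters are from RefSeq. Alternatives were no filter, a stricter filter, 3 scalings, a trended robust prior, sample weights, the methods' t-test, other thresholds, low values raised to 8.82, the mean of a gene's probe sets, adjustment over genes and leaving out each sample.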

Additional observations from a re-analysis of the deposited data

Results flagged for a closer look

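In 5 of 72 groups of 4 samples (36 genes on each diet) 1 sample lay far from the other 3 by Dixon's criterion, which chance alone meets in about 1 of 20 groups. Lyz2 read 446 in HF 21 against 302 to 322 in the other HF samples, and it stayed under every NC sample. Cyba read 35.5 in HF 21 against 44.7 to 45.6, further from NC than the rest of its group. Cd68 read 6.65 in HF 24 against 10.8 to 10.9, where the value lies under the filter level of 8.82. Fcer1g read 160.1 in NC 1 against 149 to 149.6, and Ncf1 read 40.3 in NC 1 against 34.2 to 34.4. HF 21 and NC 1 account for 2 such values each and HF 24 for 1, and the calls of Lyz2 and Cyba were kept without HF 21.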

How the results depend on the processing

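The count of 17 lower genes ran from 15 to 17 with 1 sample left out, and the counts of higher genes and probe sets were 0 under each alternative run for them. The count of lower probe sets ran from 20 to 25, and the median log2 fold change from -0.72 to -0.66, with 1 sample left out. The median moved to -0.50 with no filter, which brings in 14 dim genes, and to -0.91 with the stricter filter, which leaves 30. Scaling on beta cell markers shifted the median of all genes to -0.11 and that of the members to -0.79, and gave 22 lower genes, adding Adgre1, Fcgr3, Mpeg1, Ncf4 and Tyrobp. No log2 fold change of a called gene changed sign. In all 8 fits with 1 sample left out, 15 of the 17 genes were called, Lgals3 and Mertk being the exceptions, and 11 were called under all 22 alternatives. Those 2 genes also lost their call with no filter and by the methods' t-test after adjustment, and at a fold of at least 2 the calls numbered 12. No paired analysis was possible because the diets share no replicate numbers in the labels. Members near 8.82 (Trem2, Tlr7, Msr1, Cd68 and Ncf4) have signal too low to show more than a large difference, and of the 14 genes under the filter 0 were called by limma with no filter, with 0 at an unadjusted p under 0.05. With 4 pools per diet, members that missed the test are not shown to be equal.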
